A study of Homo sapiens with 4 samples.

Results

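The AP-1 family examined here comprised the genes JUN, JUNB, JUND, FOS, FOSB, FOSL1, FOSL2, BATF and BATF3, and its members were all probe sets annotated to 1 of these symbols alone. They came to 19 of 54613 tested probe sets, and each of the 9 genes, out of 19775 symbols on the array, had at least 1. The cells under study were Jurkat cells (a single T-cell acute lymphoblastic leukemia line) that had received 100 nM of a pool of siRNAs against LEF1 (siLEF1, 2 arrays). The comparison was with Jurkat cells that had received 100 nM of a pool of non-targeting siRNAs (siNT, 2 arrays), and RNA of both groups was taken 24 h after transfection with the same reagent. The sample labels call the replicates of each group biological and number them 1 and 2. They do not say whether the replicates were separate transfections, so p-values measure the spread between these samples. Non-transfected cells were not analysed here.

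AP-1 is a set of dimeric transcription factors whose subunits share a basic region, which touches DNA, and a leucine zipper, through which they pair. JUN proteins pair among themselves or with FOS proteins, FOS proteins need a JUN partner, and the small BATF proteins pair with JUN proteins and can join IRF factors on DNA in lymphocytes. FOS, FOSB, JUN and JUNB belong to the immediate early genes, which serum, antigen receptor signals or stress switch on briefly, and in T cells AP-1 acts with NFAT at cytokine genes such as IL2. LEF1 is a DNA-binding partner of beta-catenin in the Wnt pathway.

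The promoters of JUN, JUND, FOSL2 and FOS are shown because the probe sets with the most negative differences belonged to these genes. Each window holds 250 bases before and 50 bases after the RefSeq start of the gene (GRCh38.p14), 5′ to 3′ on the strand of the gene. RefSeq windows of this kind were at hand for 7 of the 9 genes. Capitals mark matches to the searched motifs.
JUN promoter, chr1:58783998-58784297, minus strand: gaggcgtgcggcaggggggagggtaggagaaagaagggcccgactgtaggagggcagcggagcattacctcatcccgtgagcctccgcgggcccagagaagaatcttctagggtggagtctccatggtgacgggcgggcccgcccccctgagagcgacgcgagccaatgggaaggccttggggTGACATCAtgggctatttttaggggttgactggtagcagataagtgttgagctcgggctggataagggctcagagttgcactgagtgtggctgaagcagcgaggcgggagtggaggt
JUND promoter, chr19:18281573-18281872, minus strand: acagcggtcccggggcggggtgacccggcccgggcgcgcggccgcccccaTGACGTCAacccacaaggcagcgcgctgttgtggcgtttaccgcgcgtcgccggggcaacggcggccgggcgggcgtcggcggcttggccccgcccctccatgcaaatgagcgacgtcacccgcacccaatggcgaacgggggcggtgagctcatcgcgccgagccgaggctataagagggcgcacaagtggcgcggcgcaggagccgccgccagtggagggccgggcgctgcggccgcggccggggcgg
FOSL2 promoter, chr2:28392608-28392907, plus strand: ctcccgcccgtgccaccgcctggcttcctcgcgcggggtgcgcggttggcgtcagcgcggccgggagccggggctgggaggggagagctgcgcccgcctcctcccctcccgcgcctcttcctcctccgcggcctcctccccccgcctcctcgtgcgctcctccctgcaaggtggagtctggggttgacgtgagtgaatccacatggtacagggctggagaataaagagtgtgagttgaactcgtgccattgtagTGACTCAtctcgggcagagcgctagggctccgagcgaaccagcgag
FOS promoter, chr14:75278578-75278877, plus strand: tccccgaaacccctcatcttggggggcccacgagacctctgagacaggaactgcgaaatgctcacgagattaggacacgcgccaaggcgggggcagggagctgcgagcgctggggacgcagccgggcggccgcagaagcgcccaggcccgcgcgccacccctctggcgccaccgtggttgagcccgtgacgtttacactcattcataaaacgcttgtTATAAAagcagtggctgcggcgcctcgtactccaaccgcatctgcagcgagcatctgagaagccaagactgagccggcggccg
The capitals in the JUN window are TGACATCA, an element that JUN and ATF2 proteins bind, 67 bases before the start, and 2.61% of 35116 RefSeq promoters of the same length hold it on either strand. In JUND they are the palindrome TGACGTCA, the CRE element of CREB and ATF proteins, 200 bases before the start, which 1.85% of promoters hold. In FOSL2 they are TGACTCA, a match to the AP-1 element TGANTCA, which begins at base 5 after the start, and 7.71% of promoters have such a match. In FOS they are the TATA box motif TATAAA, 33 bases before the start, present in 11.5% of promoters. The LEF1/TCF element was searched as CTTTG followed by AA, AT, TA or TT, which 13.8% of promoters hold and 0 of these 7 windows. JUNB and FOSB matched only TATAAA, BATF matched no motif, and the matches of different motifs did not overlap. The matches describe letters in a short window and show no binding.

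The values were log2 signals after RMA, which subtracts background, gives all arrays the same distribution and merges the probes of each set into 1 signal per array. Differences (siLEF1 minus siNT) were tested with limma over all probe sets with Benjamini-Hochberg adjustment, and calls needed both an adjusted p under 0.05 and more than a 2-fold change. A value given as SE is the standard error from this fit. Array medians lay between 4.84 and 4.85. The brightest LEF1 probe set had signals of 11.24 and 11.56 in the siLEF1 arrays, against 12.30 and 11.92 in the siNT arrays, a log2 difference of -0.71 (SE 0.20, limma adjusted p = 0.191) that was not called, and the other LEF1 probe sets had -0.93 and -0.19. The siNT replicate 2 array was the farther of the siNT arrays from the siLEF1 arrays. Its Pearson's r over probe sets was 0.979 and 0.980 with these, where siNT replicate 1 had 0.988 and 0.991. Within groups, r was 0.990 between the siNT arrays and 0.995 between the siLEF1 arrays. The 5' minus 3' signal of ACTB, a measure of RNA integrity, was -1.08 and -1.55 in the siLEF1 arrays and -1.80 and -1.95 in the siNT arrays, and its part in the results below was not tested. Of 13 T-cell markers 12 had a probe set and 0 of these lay under the array medians on all 4 arrays. The same held for 0 of 4 erythroid, 6 of 8 epithelial and stromal, 2 of 5 B-cell and 2 of 5 myeloid markers. All 4 measured erythroid markers had both siLEF1 signals under both siNT signals, an order found in 26.4% of all symbols, with a median log2 difference of -0.49, and so did 3 of 5 myeloid markers. Of the 12 T-cell markers 0 had this order and 7 had both siLEF1 signals over both siNT signals (28.1% of all symbols), with a median of 0.32. The median signal of the erythroid markers was 4.96 and 4.89 in the siLEF1 arrays and 5.87 and 5.09 in the siNT arrays, and that of the T-cell markers 9.82 and 9.79 in the siLEF1 arrays and 9.70 and 9.13 in the siNT arrays. Both medians were thus lower in siNT replicate 2 than in siNT replicate 1, the opposite order to that of most JUN and FOS probe sets. The part of these markers in the results below was not tested. In bulk RNA of a single cell line, fewer cells expressing a marker and less of its RNA per cell cannot be told apart.

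No AP-1 probe set was called, since 0 of 19 were called lower, where 0.183% of all probe sets were, and 0 were called higher, where 0.0238% were. The smallest adjusted p among the members was 0.0829 (limma). At an unadjusted p under 0.05 there were 9 members with a negative difference, where 8.79% of all probe sets were in this class, and 1 with a positive one, where 6.85% were. This count depended on the moderation of variances by limma. With an F test without moderation, 1 member was negative at that threshold (4.3% of all probe sets) and 1 positive (3.75%). A difference beyond 2-fold downward was found in 9 of 19 members (2.34% of all probe sets) and upward in 0 (0.482%). Both siLEF1 signals lay under both siNT signals in 14 members (21.2% of all probe sets), over both in 2 (27.4%), and the groups overlapped in 3. Probe sets of 1 gene read the same RNA, so these are not counts of independent genes. At that unadjusted p, the brightest probe sets of the 9 genes gave 2 negative (11.5% of all symbols) and 1 positive (7%). Beyond 2-fold downward were 3 of these 9 (573 of 19775 symbols), and upward 0 (89). Their siLEF1 signals both lay under both siNT signals in 5 (26.4%) and over both in 2 (28.1%). The median log2 difference was -0.59 over the members and 0.04 over all probe sets. That of the members was -0.99 without siNT replicate 1 and -0.26 without siNT replicate 2. Without siNT replicate 2, 7 members were beyond 2-fold downward, and the share of all probe sets beyond it was not computed for that setting.

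**Figure D1:**
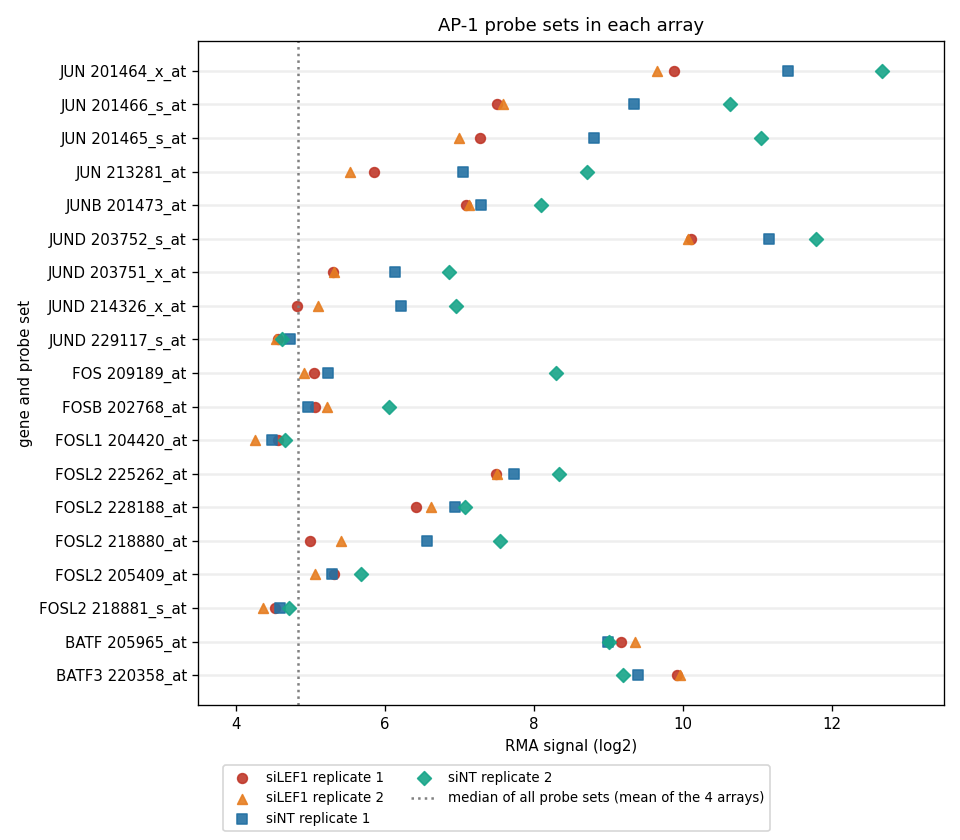
Signals (log2 RMA, horizontal axis) of the 19 AP-1 probe sets, grouped by gene and ordered by brightness within a gene, in each of the 4 arrays, with circles and triangles for the siLEF1 replicates and squares and diamonds for the siNT replicates. The siLEF1 signals lie to the left of both siNT signals in 14 rows and to the right only in the rows of BATF and BATF3, and siNT replicate 2 is the rightmost point in most rows of the JUN and FOS genes.

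JUN, the founding AP-1 subunit and itself bound by AP-1 at its promoter, had the most negative values of the family, and its 4 probe sets gave similar differences. The brightest, 201464_x_at, had signals of 9.89 and 9.65 in the siLEF1 arrays and of 11.41 and 12.67 in the siNT arrays. Its log2 difference was -2.28, or 4.84-fold (SE 0.39, limma adjusted p = 0.0918, n = 2 arrays per group). The groups did not overlap, and the siNT arrays were farther apart than the siLEF1 arrays. For 201466_s_at the signals were 7.51 and 7.59 in the siLEF1 arrays, against 9.34 and 10.63 in the siNT arrays, and for 201465_s_at they were 7.28 and 7.001, against 8.80 and 11.05. For 213281_at they were 5.85 and 5.53 in the siLEF1 arrays, against 7.05 and 8.72 in the siNT arrays. Their log2 differences were -2.44, -2.79 and -2.20, with SEs of 0.39, 0.65 and 0.50 and limma adjusted p of 0.0829, 0.145 and 0.139. Each of the 4 probe sets thus had both siLEF1 signals below both siNT signals. In the order given above, 93, 69, 35 and 108 of all probe sets had a more negative difference. A larger excess of siNT replicate 2 over replicate 1 was found in 206, 190, 13 and 67 of all probe sets, in the same order. Against siNT replicate 1 alone, the log2 difference of 201465_s_at was -1.66. The 4 probe sets read the same RNA and are not independent of each other, and sets with IDs ending in _x_at or _s_at can also read related transcripts.

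JUND, a JUN protein that many resting cells make, was read by 4 probe sets, of which 3 had similar differences. Its brightest, 203752_s_at, had signals of 10.10 and 10.07 in the siLEF1 arrays, against 11.16 and 11.79 in the siNT arrays. The log2 difference was -1.39, or 2.61-fold (SE 0.23, limma adjusted p = 0.0865), with siLEF1 arrays that differed by 0.03 and siNT arrays that differed by 0.64. The probe set 203751_x_at had 5.31 and 5.32 in the siLEF1 arrays and 6.13 and 6.86 in the siNT arrays, and 214326_x_at had 4.82 and 5.11 in the siLEF1 arrays and 6.22 and 6.95 in the siNT arrays. Their log2 differences were -1.18 and -1.62 (limma adjusted p = 0.123 and 0.0843). In all 3 the groups were apart. The fourth, 229117_s_at, lay under the median of its array on all 4 arrays, with 4.57 and 4.53 in the siLEF1 arrays against 4.73 and 4.62 in the siNT arrays and a log2 difference of -0.12 (limma adjusted p = 0.744). Differences in such dim probe sets can be understated.

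JUNB, an immediate early gene whose protein activates less strongly than JUN at many sites, had 1 probe set. Its signals were 7.09 and 7.13 in the siLEF1 arrays, against 7.30 and 8.09 in the siNT arrays, a log2 difference of -0.59 (SE 0.27, limma adjusted p = 0.360). The groups did not overlap, but siNT replicate 1 was only 0.19 over the siLEF1 mean. JUNB lay nearer to 0 than any of the JUN probe sets, and the difference between the genes was not tested.

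FOS, the immediate early partner of JUN, was high on 1 array alone. Its probe set had signals of 5.04 and 4.91 in the siLEF1 arrays, against 5.24 and 8.30 in the siNT arrays. The log2 difference of -1.79 had an SE of 0.87 and a limma adjusted p of 0.392. Between the siNT arrays FOS differed by 3.06, and only 2 of the 54613 probe sets had a larger excess of siNT replicate 2 over replicate 1. The siLEF1 mean was 0.26 below siNT replicate 1 and 3.32 below siNT replicate 2, so the size of the FOS difference was set by siNT replicate 2. FOSB, a close relative of FOS, had 5.06 and 5.23 in the siLEF1 arrays and 4.97 and 6.06 in the siNT arrays, so that the groups overlapped, with a log2 difference of -0.37 (limma adjusted p = 0.660). Without siNT replicate 2 the log2 difference of FOSB was 0.17, the opposite sign.

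FOSL1 and FOSL2 encode the FOS-related proteins FRA1 and FRA2, which lack the strong activation domain of FOS. FOSL1 lay under the median on all 4 arrays, with 4.57 and 4.26 in the siLEF1 arrays and 4.49 and 4.66 in the siNT arrays, and its groups overlapped (log2 difference -0.16, limma adjusted p = 0.726). FOSL2 was read by 5 probe sets, which disagreed in size. The brightest, 225262_at, had 7.49 and 7.51 in the siLEF1 arrays, against 7.73 and 8.34 in the siNT arrays, and a log2 difference of -0.53 (SE 0.22, limma adjusted p = 0.326), which was -0.84 without siNT replicate 1 and -0.23 without siNT replicate 2. In contrast, 218880_at had 4.99 and 5.41 in the siLEF1 arrays, against 6.56 and 7.54 in the siNT arrays, and a log2 difference of -1.85, or 3.61-fold (SE 0.33, limma adjusted p = 0.0958). The groups did not overlap in either. The probe set 228188_at had 6.42 and 6.62 in the siLEF1 arrays and 6.94 and 7.08 in the siNT arrays, a log2 difference of -0.49 (limma adjusted p = 0.233) with little spread between the siNT arrays. For 205409_at the signals were 5.32 and 5.06 in the siLEF1 arrays and 5.29 and 5.67 in the siNT arrays, with overlap. For 218881_s_at, which was under the median on all 4 arrays, they were 4.53 and 4.37 in the siLEF1 arrays and 4.60 and 4.71 in the siNT arrays. These last 2 had log2 differences of -0.29 and -0.21. Which FOSL2 transcripts each probe set reads was not analysed here.

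BATF and BATF3, whose short proteins hold little beyond the zipper, had the only positive values of the family. BATF3 had signals of 9.92 and 9.96 in the siLEF1 arrays, against 9.40 and 9.20 in the siNT arrays. Its log2 difference was 0.64, or 1.56-fold (SE 0.15, limma adjusted p = 0.152), and both siLEF1 arrays lay over both siNT arrays. BATF had 9.17 and 9.36 in the siLEF1 arrays, against 8.99 and 9.01 in the siNT arrays, a log2 difference of 0.26 (SE 0.15, limma adjusted p = 0.470), also with no overlap. The siNT arrays differed by 0.02 in BATF and by 0.20 in BATF3. With arrays centred on 11 housekeeping genes, a change of -0.23 for every log2 difference that left the overall median at -0.19, the log2 differences were 0.41 for BATF3 and 0.04 for BATF, and the other 17 remained below 0.

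The siNT arrays differed in these genes more than in the array as a whole. The signal was higher in siNT replicate 2 than in siNT replicate 1 in 17 of 19 members, where 51.2% of all probe sets had this order, and by over 0.5 on the log2 scale in 12 (6.59% of all). Over the members the replicates differed by a median of 0.16 in size in the siLEF1 arrays and of 0.72 in the siNT arrays, and over all probe sets by 0.15 in the siLEF1 arrays and 0.21 in the siNT arrays. Compared with siNT replicate 1 alone, both siLEF1 arrays were below it in 14 members (30.8% of all probe sets) and above it in 3 (42.7%). Compared with siNT replicate 2 alone, they were below it in 17 (36.2%) and above it in 2 (41.9%). The log2 differences of the siLEF1 mean from siNT replicate 1 ran from -1.79 to -1.36 in the JUN probe sets and were -1.07, -0.82 and -1.25 in the 3 brighter JUND ones. They were -0.19 in JUNB, -0.26 in FOS and 0.54 in BATF3. For 218880_at of FOSL2 the value was -1.36. All other probe sets lay nearer to siNT replicate 1 than 218880_at, the JUN probe sets and the 3 brighter JUND ones. This order was read after the data were seen, and how many of all probe sets lay as far was not computed.

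**Figure D2:**
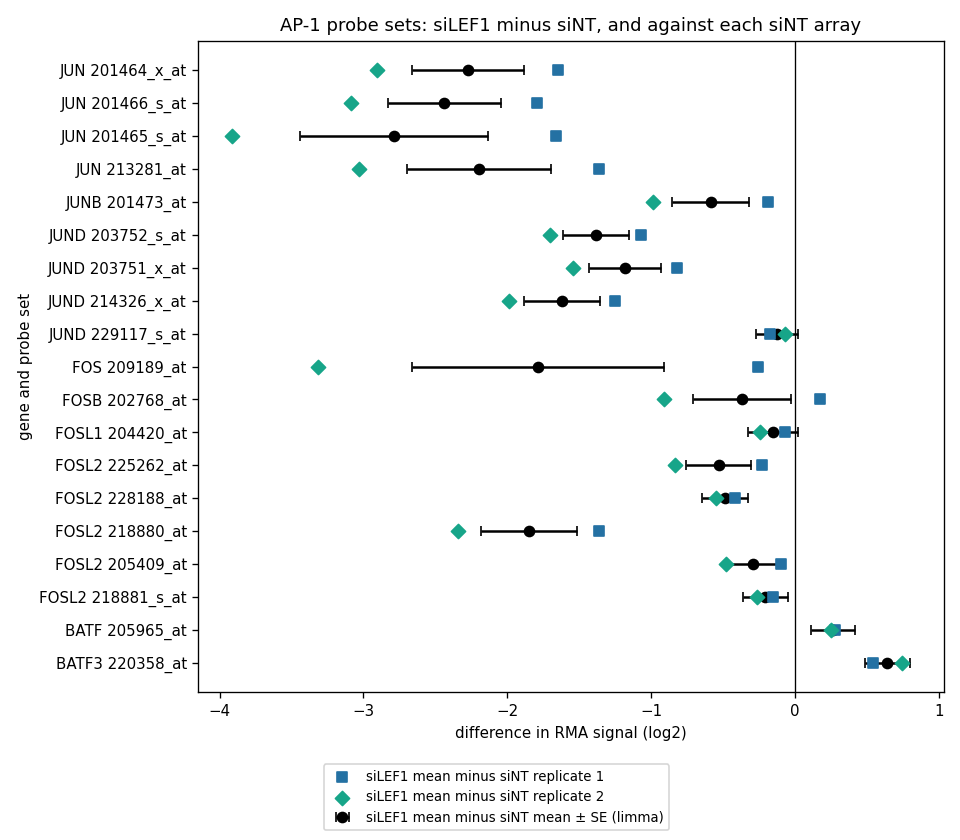
Log2 differences in RMA signal (horizontal axis) for the 19 AP-1 probe sets. Black circles with bars are the siLEF1 mean minus the siNT mean with its limma SE, squares are the siLEF1 mean minus siNT replicate 1 and diamonds the siLEF1 mean minus siNT replicate 2. In FOS the square is at -0.26 and the diamond at -3.32, while in the JUN probe sets the squares lie between -1.79 and -1.36.

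The calls depended on which siNT array was kept. Without siNT replicate 1 limma called 9 of 19 members lower, where 2.36% of all probe sets were called lower, under the assumption that the lone siNT array varies like the siLEF1 arrays. These were the 4 JUN probe sets, the 3 brighter JUND ones, FOS (log2 difference -3.32, limma adjusted p = 0.0313) and 218880_at of FOSL2 (-2.34, limma adjusted p = 0.0408). Without siNT replicate 2, or without either siLEF1 array, 0 members and 0 probe sets of the whole array were called. With siNT replicate 2 left out, an unadjusted p under 0.05 was found in 8 members with a negative difference (7.53% of all probe sets) and 1 with a positive one (3.88%). Without siLEF1 replicate 1 there were 8 negative (4%) and without siLEF1 replicate 2 there were 9 (5.39%), each time with 1 positive (2.75% of all probe sets without siLEF1 replicate 1 and 3.07% without siLEF1 replicate 2). With centring on the housekeeping genes and all 4 arrays, 6 members were called lower (2.32% of all probe sets).

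The genes whose brightest probe set lay nearest to that of JUN, 201464_x_at, over the 4 centred signals were PPP1R15A, RGS2, EFNB2, H2AC8 and LOC389765, with Euclidean distances of 0.06, 0.09, 0.13, 0.13 and 0.18 on the log2 scale. PPP1R15A, a stress-induced phosphatase subunit, had signals of 6.85 and 6.65 in the siLEF1 arrays and of 8.37 and 9.60 in the siNT arrays. RGS2, a regulator of G protein signaling, had 5.99 and 5.74 in the siLEF1 arrays and 7.51 and 8.87 in the siNT arrays. The rule picks genes with the order of arrays seen in JUN, so that order and the lack of calls among the 5 add nothing to it.

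AP-1 pathway genes outside the family were described by the brightest probe set per gene, and against all symbols, of which 0.263% were called lower and 0.0657% higher and whose median log2 difference was 0.02. Of 29 other bZIP genes 25 had a probe set of their own, and 1 was called lower and 0 higher. That gene was CREB5, a CRE-binding protein that can pair with JUN, with 4.09 and 4.70 in the siLEF1 arrays, against 7.54 and 8.07 in the siNT arrays. Its log2 difference was -3.41, or 10.6-fold (SE 0.27, limma adjusted p = 0.0234), and a second of its 4 probe sets was called as well, at -2.55 (limma adjusted p = 0.0243). The other CREB5 probe sets had -1.43 and 0.26 and were not called. In both called sets the siLEF1 signals were dimmer than the array median, so the fold is imprecise. Both calls were lost without siLEF1 replicate 1, without siLEF1 replicate 2 or without siNT replicate 2 (limma adjusted p of the brighter set 0.684, 0.498 and 0.105) and with the F test, and held without siNT replicate 1 (0.0394).

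The median log2 difference of the 25 bZIP genes was -0.30, with both siLEF1 signals under both siNT signals in 15 (26.4% of all symbols) and over them in 2 (28.1%). ATF3, a stress-induced partner of JUN, had 8.06 and 7.89 in the siLEF1 arrays, against 9.73 and 11.53 in the siNT arrays, with a log2 difference of -2.65 (limma adjusted p = 0.111). DDIT3, the stress factor CHOP, had 8.33 and 8.22 in the siLEF1 arrays, against 10.33 and 11.35 in the siNT arrays, with a log2 difference of -2.57 (limma adjusted p = 0.0562). CEBPB, a C/EBP factor, had a log2 difference of -0.88 (limma adjusted p = 0.0957). None of these 3 passed, and in ATF3 and DDIT3 siNT replicate 2 exceeded replicate 1 by 1.80 and 1.01, as in JUN.

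Kinases of the JNK, ERK and p38 pathways, which phosphorylate or induce AP-1 subunits, had a median log2 difference of 0.01 over 16 measured of 21 listed, and 0 were called in either direction. MAP3K5, a kinase upstream of JNK, had 0.80, the ERK-activated kinase gene RPS6KA3 0.63 and the ERK activator gene MAP2K2 0.35, while MAPK8, which encodes JNK1, had -0.29. At an unadjusted p under 0.05 there were 0 with a negative and 2 with a positive difference (11.5% and 7% of all symbols). Of 11 measured factors known to act on FOS or JUN promoters 0 were called, and their median was 0.12. MEF2C had 4.32 and 4.26 in the siLEF1 arrays, against 7.23 and 5.91 in the siNT arrays (log2 difference -2.28, limma adjusted p = 0.0934), and was thus lower in siNT replicate 2 than in replicate 1, the opposite order to JUN. MEF2A had -0.81, and SRF and ELK4, which act together at the FOS promoter, had 0.55 each.

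Of the 6 NFAT and IRF genes whose proteins share composite sites with AP-1, 0 were called and the median log2 difference was 0.09. NFATC3 and NFATC2 had 0.41 and 0.36, and NFAT5 and IRF8 had -0.53 and -0.47. In the group of 11 genes for turnover of AP-1 proteins or mRNAs 0 were called, with a median of -0.19. TRIB1, an adaptor of the ubiquitin ligase COP1, had 5.48 and 5.72 in the siLEF1 arrays, against 8.02 and 7.29 in the siNT arrays (log2 difference -2.06, limma adjusted p = 0.0562). ITCH, a ubiquitin ligase for JUN proteins, had -1.36 (limma adjusted p = 0.0956), and the mRNA decay factors ZFP36L2 and ZFP36L1 had 0.65 and -0.66.

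Genes with well-known AP-1 sites had values on both sides of 0. Of 29 measured of 31 listed, 0 were called, 16 had a value below 0, and the median log2 difference was -0.04. At an unadjusted p under 0.05 there were 6 with a negative difference (11.5% of all symbols) and 1 with a positive one (7%), and 9 lay under the array medians on all 4 arrays, where a difference can be missed. CXCL8, a chemokine gene, had 3.66 and 3.24 in the siLEF1 arrays, against 5.37 and 6.05 in the siNT arrays (log2 difference -2.26, limma adjusted p = 0.0517), with both siLEF1 signals under the array medians. CD69, an early activation marker of T cells, had 6.65 and 6.60 in the siLEF1 arrays, against 8.07 and 7.70 in the siNT arrays (log2 difference -1.26, limma adjusted p = 0.0692). KRT18 and MMP9 had -0.60 and -0.63.

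**Figure D3:**
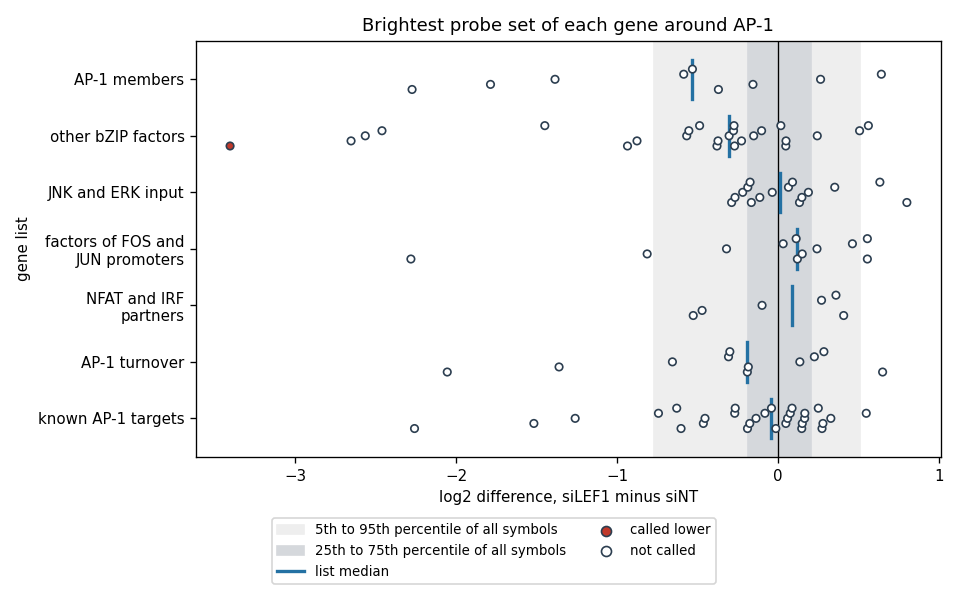
Log2 fold change, siLEF1 minus siNT (horizontal axis), of the brightest probe set of each gene in the AP-1 family and in 6 lists around it. Filled points were called lower, open points were not called, short lines are list medians and grey bands hold the middle 50% and 90% of all symbols. CREB5, at -3.41, is the only filled point, and the medians run from -0.53 in the family to 0.12 in factors of the FOS and JUN promoters.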

How the data were processed

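RNA of Jurkat cells was labelled with a 3' IVT kit and hybridised to Affymetrix HG-U133 Plus 2.0 arrays, 2 per group. The authors used Expression Console of Affymetrix (1.1 per the submitters' processing notes) with RMA normalization. The deposited table gives log2 signals of 54675 probe sets, unfiltered. It is not stated whether arrays of non-transfected cells were in the same RMA run. RMA draws dim probe sets together, so low differences may be understated, and the number of arrays limits precision.

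From these values, 62 control probe sets were left out and siLEF1 minus siNT was tested with limma 3.58.1 in R 4.3.3 (lmFit, eBayes, 2-sided, 2 residual and 4.30 prior degrees of freedom). The paper's methods name limma with 3 groups, and here 2 were compared. Symbols came from the platform annotation, updated by Entrez number: 41091 probe sets had 1 symbol, 1801 several and 11721 none. In simulated data with equal spread in both groups, the calls recovered 2.2% of 2-fold and 85.6% of 4-fold changes. Changes near 2-fold would thus mostly be missed. The AP-1 probe sets did not have equal spread, with median replicate differences of 0.16 in the siLEF1 arrays and 0.72 in the siNT arrays. The recovered shares may therefore not hold for them.

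Members and lists were chosen with earlier results of these data known. Named genes were all members, LEF1, up to 4 genes per list with the smallest p, any called, and the 5 nearest to JUN. Alternatives tried were dropping probe sets whose mean log2 signal was 6 or less, eBayes with trend and robust settings, an F test without moderation, a replicate block, median and housekeeping centring, removal of _x_at and _s_at probe sets, 1 probe set per gene, other fold thresholds (1.5 and none) and each array left out. The deviations of same-numbered arrays had a correlation of -0.15 across probe sets, so the numbers were not used as pairs.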

Additional observations from a re-analysis of the deposited data

How the results depend on the processing

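The count of AP-1 probe sets called higher was 0 under every alternative run. The count called lower was 0 with all arrays and stayed 0 with the signal filter, the trend and robust settings, the F test without moderation, median centring, removal of _x_at and _s_at probe sets, 1 probe set per gene and either fold threshold. It was 6 with housekeeping centring (2.32% of all probe sets were then called lower), 8 with the replicate block (1.79%) and between 0 and 9 when each array was left out. With the replicate block 977 probe sets of the array were called lower and 120 higher, against 100 and 13 without it. A crossed block gave 8 AP-1 probe sets and 763 lower and 159 higher in all, with a count of members equal to that of the same-numbered pairs. It was added after the data were seen because the deviations of same-numbered arrays had a negative, though weak, correlation (-0.15). The labels give no shared source for equal numbers. Over all probe sets the counts of lower calls also went to 4 with the signal filter, 0 with the F test, 130 with trend and robust settings, 171 with 1 probe set per gene and 1265 with housekeeping centring, and higher calls to 1, 0, 20, 29 and 25. The median log2 difference of the members was between -0.99 and -0.26 when each array was left out. It was -1.39 over the 11 probe sets that passed the signal filter, which used the mean of all 4 arrays. Of these, 213281_at of JUN and 218880_at of FOSL2 had siLEF1 means of 5.69 and 5.20, under the cut of 6. They passed through their siNT signals, so the filter was not independent of the differences and this median adds no support. The single reversal was that of FOSB, whose log2 difference ran from -0.91 without siNT replicate 1 to 0.17 without siNT replicate 2. The brighter called CREB5 probe set, checked after the data were seen, was also not called with the signal filter (limma adjusted p = 0.0534), and its log2 difference was between -3.71 and -3.10 when each array was left out. The cause of these differences was not tested.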
